A study of Mus musculus with 9 samples.

Results

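Msh3, Msh6, Mlh3, Pms1, Pms2, Fan1, Lig1 and Exo1 are DNA repair genes that act in mismatch repair or beside it, and each has been studied for its effect on the length of expanded CAG repeats. These 8 genes were taken by symbol from the 36410 genes of a deposited mRNA count table. All 8 had enough counts to be among the 13508 genes compared between cell lines.

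The counts come from 9 poly(A)-selected, strand-specific RNA-seq libraries of immortalized mouse striatal cells, 3 replicates from each of 3 lines, which the labels give as strain C57/BL6. Control cells (STHdhQ7/Q7), which the paper describes as derived from wild-type embryos, carry 7 glutamine codons in Htt exon 1 on both alleles. HD-het cells (STHdhQ7/Q111) carry 7 on 1 allele and 111 on the other, and HD-homo cells (STHdhQ111/Q111) carry 111 on both. Each genotype is 1 immortalized line, so an effect of the genotype cannot be told apart from one of the line. Nothing in the labels says that the 3 libraries of a line came from separate cultures, so that p-values measure the spread between these libraries, which may be technical. Libraries held between 29507665 and 41197931 counts, and levels are given as counts per megaread (CPM) after TMM normalization.

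Mismatch repair starts when a MutS heterodimer binds a mispaired base or an extruded loop and a MutL heterodimer is loaded beside it. The MutL complex or a nuclease then opens the DNA strand, the strand is removed and resynthesized, and a ligase seals it. At CAG repeats the same proteins can turn an extruded loop into added repeat units, which makes them modifiers of somatic expansion and of the age at onset of Huntington disease, while the nuclease FAN1 is known to restrain expansion.

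In HD-het cells 7 of the 8 genes differed from control cells (adjusted p under 0.05), against 65.1% of all genes tested. The test was the two-sided quasi-likelihood test of edgeR on all 9 libraries, and adjusted p-values throughout are those of Benjamini and Hochberg over all genes tested. Msh3, Msh6, Pms2, Lig1 and Exo1 were lower (5 of 8, against 31.4% of all genes), and Mlh3 and Fan1 were higher (2 of 8, against 33.8%). In HD-homo cells 4 of the 8 differed from control cells, against 58.6% of all genes, with Msh6, Mlh3 and Lig1 lower (3 of 8, against 28.9%) and Pms2 higher (1 of 8, against 29.6%). Between HD-homo and HD-het cells 7 of the 8 differed, against 71.6% of all genes, with Msh3, Pms2, Lig1 and Exo1 higher in HD-homo cells (4 of 8, against 36.0%) and Msh6, Mlh3 and Fan1 lower (3 of 8, against 35.6%). Since most of the genes tested differed between the lines, these counts do not set the 8 genes apart from the rest. The median log2 fold change of the 8 genes was -0.48 in HD-het against control cells, where that of all genes tested was 0.03, and -0.11 in HD-homo against control cells, where that of all genes was 0.01. Both comparisons use the same control libraries. Exact permutation of 3 libraries against 3 cannot give a p below 0.1, so that p-values under that limit depend on the model fitted.

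**Figure D1:**
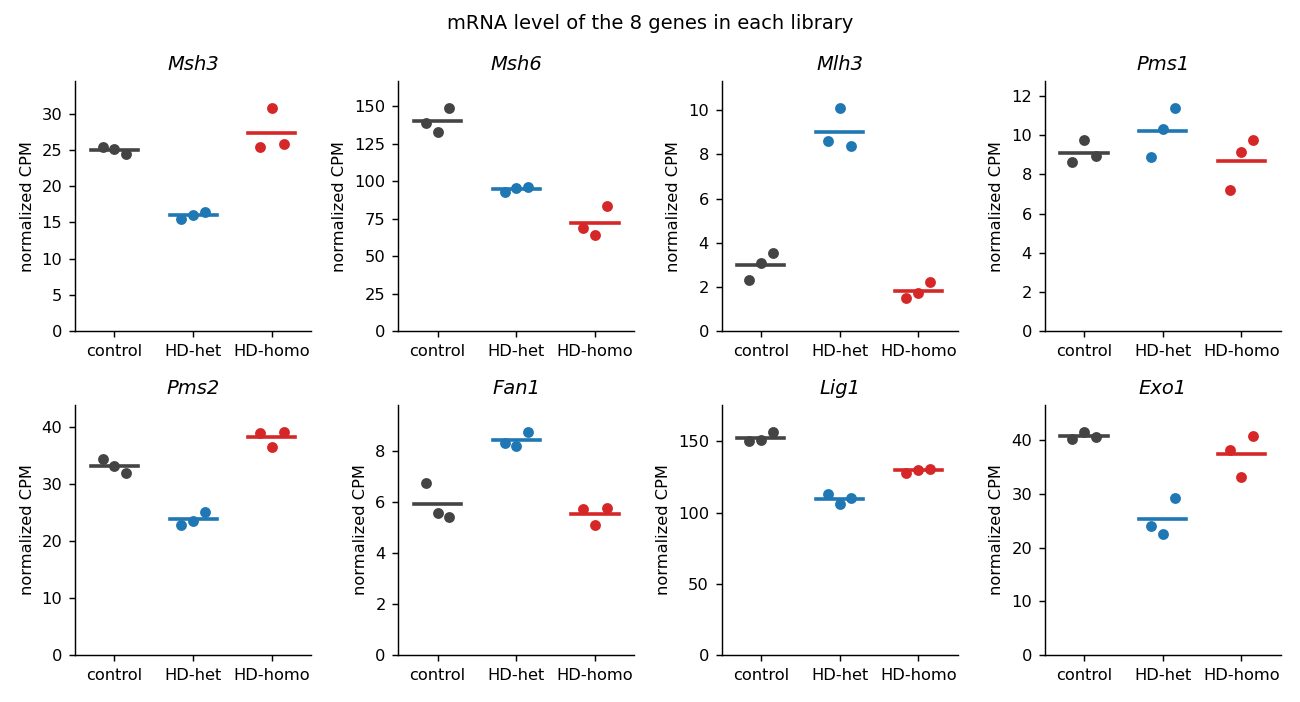
Normalized CPM of the 8 genes in each library. Each point is 1 library, horizontal bars are means of the 3 libraries of a line, and each vertical axis starts at 0. Mlh3 stands between 8.39 and 10.1 CPM in HD-het cells and at or under 3.52 CPM in the other lines, while Msh3 stands lowest in HD-het cells, between 15.5 and 16.4 CPM.

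Msh3 encodes the subunit that lets MutS bind insertion and deletion loops, and its loss prevents somatic CAG expansion in mouse models. In GRCm38 the gene spans 92211872 to 92355003 of chromosome 13, minus strand, and the transcript with its longest coding sequence has 24 exons. In control cells Msh3 stood at 25.4, 25.1 and 24.4 CPM, in HD-het cells at 15.5, 16.0 and 16.4 CPM and in HD-homo cells at 25.4, 30.8 and 25.8 CPM. All HD-het libraries lay below all others, and the control and HD-homo libraries overlapped, with HD-homo replicate 2 the highest of the 9. Msh3 mRNA was 1.57-fold lower in HD-het cells relative to control (log2 fold change -0.65, SE 0.0841, adjusted p = 4.4e-05), and HD-homo cells stood 1.71-fold above HD-het cells (0.78, SE 0.0836, adjusted p = 7.2e-06). Between HD-homo and control cells the log2 fold change was 0.13 (SE 0.082, adjusted p = 0.196), which did not pass the test.

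Msh6 encodes the subunit that turns MutS toward single mispaired bases and short loops. The gene spans 87975062 to 87990892 of chromosome 17, plus strand, and has 10 exons in the transcript with the longest coding sequence. The control libraries stood at 139, 133 and 149 CPM, the HD-het libraries at 93.0, 95.4 and 96.3 CPM and the HD-homo libraries at 69.0, 64.0 and 83.4 CPM. The 3 lines did not overlap and fell in the order control, HD-het, HD-homo. Msh6 was 1.48-fold lower in HD-het cells relative to control (log2 fold change -0.56, SE 0.0876, adjusted p = 1.7e-04) and 1.94-fold lower in HD-homo cells relative to control (-0.96, SE 0.0883, adjusted p = 3.2e-06). HD-homo and HD-het cells also differed (-0.40, SE 0.0881, adjusted p = 0.00178). Of the 50-base words in its transcripts 4.56% also occur in transcripts of other genes, and the annotated gene overlaps Fbxo11, so that some of its reads could be counted elsewhere. Libraries were made with a strand-specific kit, but whether the counting used strand is not given in the sources used here.

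Mlh3 encodes a MutL subunit with endonuclease activity that serves meiotic crossing over and is needed for CAG expansion in mouse models. Its locus runs from 85234520 to 85270599 of chromosome 12, minus strand, with 13 exons in the transcript with the longest coding sequence. Of the 8 genes it had the fewest counts, 49 to 104 in a control or HD-homo library. Its levels were 2.33, 3.09 and 3.52 CPM in control cells, 8.60, 10.1 and 8.39 CPM in HD-het cells and 1.5, 1.73 and 2.21 CPM in HD-homo cells. All HD-het libraries stood far above the others, and the HD-homo libraries lay just under the lowest control library. Mlh3 was 3.02-fold higher in HD-het cells relative to control (log2 fold change 1.60, SE 0.171, adjusted p = 1.0e-05) and 1.64-fold lower in HD-homo cells relative to control (-0.72, SE 0.191, adjusted p = 0.00763). HD-homo cells stood 4.97-fold below HD-het cells (-2.31, SE 0.179, adjusted p = 4.9e-07), the widest gap among the 8 genes.

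Pms1 encodes a MutL subunit whose place in ordinary mismatch repair is minor, and lowering it slows CAG expansion in cell models. The gene spans 53189187 to 53297018 of chromosome 1, minus strand, and has 13 exons in the transcript with the longest coding sequence. Control cells had 8.65, 9.75 and 8.96 CPM, HD-het cells 8.91, 10.3 and 11.4 CPM and HD-homo cells 7.20, 9.14 and 9.75 CPM. The 3 lines overlapped, and no comparison passed the test. The log2 fold change was 0.16 (SE 0.131, adjusted p = 0.294) in HD-het against control cells, -0.07 (SE 0.132, adjusted p = 0.684) in HD-homo against control cells and -0.23 (SE 0.13, adjusted p = 0.136) in HD-homo against HD-het cells.

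The promoters of 7 of the 8 genes (all but Exo1) were found in RefSeq's promoter sequences on GRCm38.p6, and their 250 bases before the start were searched on both strands. TTTCGCGC or TTTGGCGC, letters known from binding sites of E2F factors, stood before Msh3 only, and they occur in 0.654% of 32851 promoters. Pms1 starts 77 bases from Ormdl1, which is transcribed the other way and encodes a regulator of sphingolipid synthesis. The stretch between their starts, clear of the starts in both GENCODE and RefSeq, is shown on the plus strand at chr1:53297029-53297094, because the mRNAs that start at its ends were measured side by side. Capitals mark the letters CCAAT on either strand, a box bound by the factor NF-Y, which were chosen after the sequences had been seen and occur in 33.8% of promoters.
Pms1-Ormdl1: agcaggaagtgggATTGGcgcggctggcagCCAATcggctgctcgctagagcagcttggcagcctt

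Ormdl1 stood at 17.1, 16.9 and 17.8 CPM in control cells, 20.1, 20.5 and 22.8 CPM in HD-het cells and 13.0, 14.3 and 12.5 CPM in HD-homo cells. Its lines did not overlap, with HD-het cells the highest and HD-homo cells the lowest. The log2 fold changes against control cells were 0.29 in HD-het cells (SE 0.0801, adjusted p = 0.00792) and -0.38 in HD-homo cells (SE 0.0815, adjusted p = 0.00199). Ormdl1 shares 8.0% of its 50-base words with other genes, chiefly a readthrough transcript of the same locus.

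Pms2 encodes the MutL subunit that nicks the DNA strand in ordinary mismatch repair. Its locus, 143909964 to 143933968 of chromosome 5, is read from the plus strand. The transcript with its longest coding sequence has 15 exons. In control cells Pms2 stood at 34.4, 33.2 and 31.9 CPM, in HD-het cells at 22.8, 23.5 and 25.1 CPM and in HD-homo cells at 38.9, 36.4 and 39.2 CPM. The lines did not overlap, with HD-het cells the lowest and HD-homo cells the highest. Pms2 was 1.39-fold lower in HD-het cells relative to control (log2 fold change -0.48, SE 0.067, adjusted p = 7.9e-05) and HD-homo cells stood 1.60-fold above HD-het cells (0.68, SE 0.0667, adjusted p = 3.4e-06). HD-homo cells exceeded control cells 1.15-fold (0.20, SE 0.0659, adjusted p = 0.0211), and this small difference missed the threshold without control replicate 2 (adjusted p = 0.0608), control replicate 3 (0.0758), HD-homo replicate 1 (0.0555) or HD-homo replicate 3 (0.0563), within a range of 0.0121 to 0.0758 over 16 alternatives. Pms2 shares 4.08% of its 50-base words with other genes, among them its overlapping neighbour Rsph10b.

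Pms2 starts 117 bases from Aimp2, which runs the other way and encodes a scaffold of the aminoacyl-tRNA synthetase complex. The stretch between them is shown on the plus strand at chr5:143909848-143909963 for the same reason as that of Pms1, with CCAAT letters on either strand in capitals.
Pms2-Aimp2: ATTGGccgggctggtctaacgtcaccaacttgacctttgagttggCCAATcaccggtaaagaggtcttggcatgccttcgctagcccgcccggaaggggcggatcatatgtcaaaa

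Aimp2 stood at 70.0, 70.2 and 73.5 CPM in control cells, at 42.7, 41.2 and 55.2 CPM in HD-het cells and at 90.9, 80.4 and 91.8 CPM in HD-homo cells. As for Pms2, the HD-het libraries were the lowest and the HD-homo libraries the highest. HD-het replicate 3 was the HD-het library nearest to control cells for both genes. This was not particular to the pair, since it held for Msh3, Msh6, Mlh3 and Exo1 too, though not for Pms1, Fan1 and Lig1. The log2 fold changes against control cells were -0.62 in HD-het cells (SE 0.102, adjusted p = 2.6e-04) and 0.30 in HD-homo cells (SE 0.1, adjusted p = 0.0241). CCAAT letters also stood before the starts of Mlh3 and Msh6, and thus in 4 of the 7 promoters searched, and a match says nothing of a factor's binding in these cells.

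**Figure D2:**
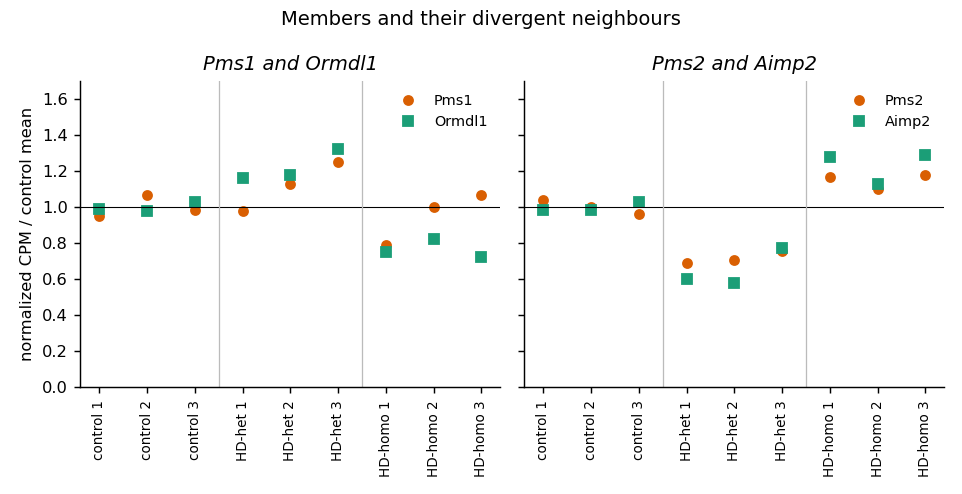
Normalized CPM of Pms1 and Pms2 and of the gene that starts beside each on the opposite strand, divided by the mean of the 3 control libraries. Each point is 1 library, grey lines part the cell lines, and the axis starts at 0. In HD-het cells Aimp2 lies between 0.578 and 0.774 of its control mean and Pms2 between 0.688 and 0.758.

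Exo1 encodes the exonuclease that removes the nicked strand in mismatch repair. The gene spans 175880581 to 175913489 of chromosome 1, plus strand, and has 15 exons in its longest coding transcript. Its levels were 40.2, 41.6 and 40.6 CPM in control cells, 24.1, 22.6 and 29.2 CPM in HD-het cells and 38.1, 33.2 and 40.8 CPM in HD-homo cells. The HD-het libraries lay below all others, and control and HD-homo libraries overlapped. Exo1 was 1.61-fold lower in HD-het cells relative to control (log2 fold change -0.69, SE 0.102, adjusted p = 1.2e-04) and HD-homo cells stood 1.48-fold above HD-het cells (0.56, SE 0.102, adjusted p = 4.3e-04). For HD-homo against control cells the log2 fold change was -0.13 (SE 0.101, adjusted p = 0.296).

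Fan1 encodes a nuclease of DNA crosslink repair that binds MutL proteins and holds back CAG expansion. Its locus, 64346758 to 64374095 of chromosome 7, is read from the minus strand. The transcript with its longest coding sequence has 14 exons. Control libraries had 6.75, 5.56 and 5.41 CPM, HD-het libraries 8.32, 8.17 and 8.75 CPM and HD-homo libraries 5.73, 5.09 and 5.76 CPM. All HD-het libraries lay above all others, and control and HD-homo libraries overlapped. Fan1 was 1.42-fold higher in HD-het cells relative to control (log2 fold change 0.51, SE 0.113, adjusted p = 0.0021) and HD-homo cells stood below HD-het cells with a log2 fold change of -0.61 (SE 0.113, adjusted p = 5.0e-04). For HD-homo against control cells the log2 fold change was -0.10 (SE 0.115, adjusted p = 0.485).

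Lig1 encodes the DNA ligase that joins Okazaki fragments and closes the strand at the end of mismatch repair. The gene spans 13277283 to 13311433 of chromosome 7, plus strand, and overlaps Zswim9 at its 5′ end. The transcript with its longest coding sequence has 29 exons. Lig1 stood at 150.4, 151 and 157 CPM in control cells, 113, 106 and 110.2 CPM in HD-het cells and 128, 130 and 131 CPM in HD-homo cells. The lines did not overlap, and HD-homo cells lay between the others. Lig1 was 1.39-fold lower in HD-het cells (log2 fold change -0.47, SE 0.0497, adjusted p = 9.1e-06) and 1.18-fold lower in HD-homo cells (-0.24, SE 0.0495, adjusted p = 0.00175) than in control cells. HD-homo cells stood above HD-het cells by a log2 fold change of 0.24 (SE 0.0497, adjusted p = 0.00123).

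**Figure D3:**
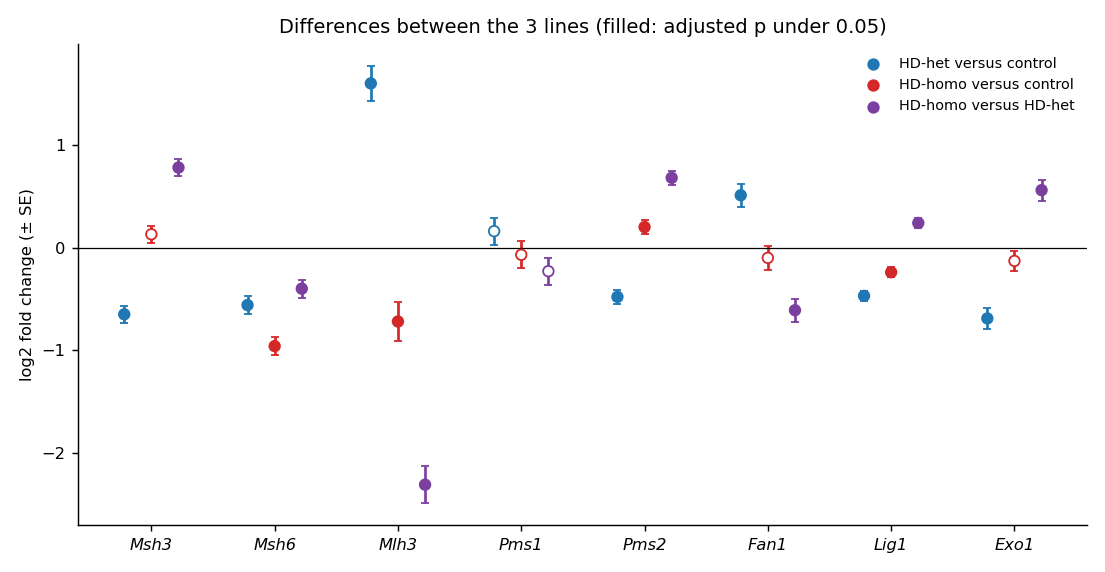
Log2 fold changes of the 8 genes with their SE in the 3 comparisons of lines. Filled points passed an adjusted p of 0.05 and open points did not. HD-het cells are lower than control cells for 5 genes and higher for Mlh3 and Fan1, and Pms1 is open in all 3 comparisons.

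A heterozygous line could be thought to lie midway between the homozygous lines on the log2 scale. This was asked of each gene by testing HD-het cells against the mean of control and HD-homo cells on that scale. The test does not by itself say whether HD-het cells lie between the homozygous lines or outside them. HD-het cells departed from that mean for 6 of the 8 genes, against 70.2% of all genes tested. Mlh3 (1.96, SE 0.142, adjusted p = 3.4e-07) and Fan1 (0.56, SE 0.0959, adjusted p = 3.0e-04) lay above it. Msh3 (-0.71, SE 0.0744, adjusted p = 6.0e-06), Exo1 (-0.63, SE 0.0903, adjusted p = 7.8e-05), Pms2 (-0.58, SE 0.0591, adjusted p = 5.0e-06) and Lig1 (-0.35, SE 0.0436, adjusted p = 2.3e-05) lay below it. For Msh6 the departure was -0.08 (SE 0.0762, adjusted p = 0.343) and for Pms1 0.20 (SE 0.112, adjusted p = 0.14), neither of which passed.

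Levels of different genes were compared per kb of the longest annotated transcript. In control cells Lig1 had the highest level, 47.6 ± 1.13 CPM per kb (SD, n = 3), followed by Msh6 with 33.0 ± 1.88. Msh3 (5.88 ± 0.117), Pms2 (5.38 ± 0.2) and Exo1 (5.23 ± 0.0949) came next on this scale, and the libraries of Pms2 and Exo1 overlapped. Pms1 (2.99 ± 0.187), Fan1 (1.71 ± 0.212) and Mlh3 (0.546 ± 0.11) had the lowest levels per kb. In HD-homo cells the order was the same, and there the libraries of Msh3 and Pms2 overlapped (6.42 ± 0.711 and 6.20 ± 0.25 CPM per kb). In HD-het cells Pms2 (3.87 ± 0.194), Msh3 (3.75 ± 0.11), Pms1 (3.35 ± 0.415) and Exo1 (3.24 ± 0.443) could not be ranked beyond their spread, while Fan1 (2.43 ± 0.0864) and Mlh3 (1.65 ± 0.167) remained the lowest. Per kb of coding sequence instead, Exo1 (16.3) and Pms2 (12.9) stood above Msh3 (7.61) in control cells, so that the middle of the order depends on the length used, while the first 2 and the last 3 places in control cells were the same.

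**Figure D4:**
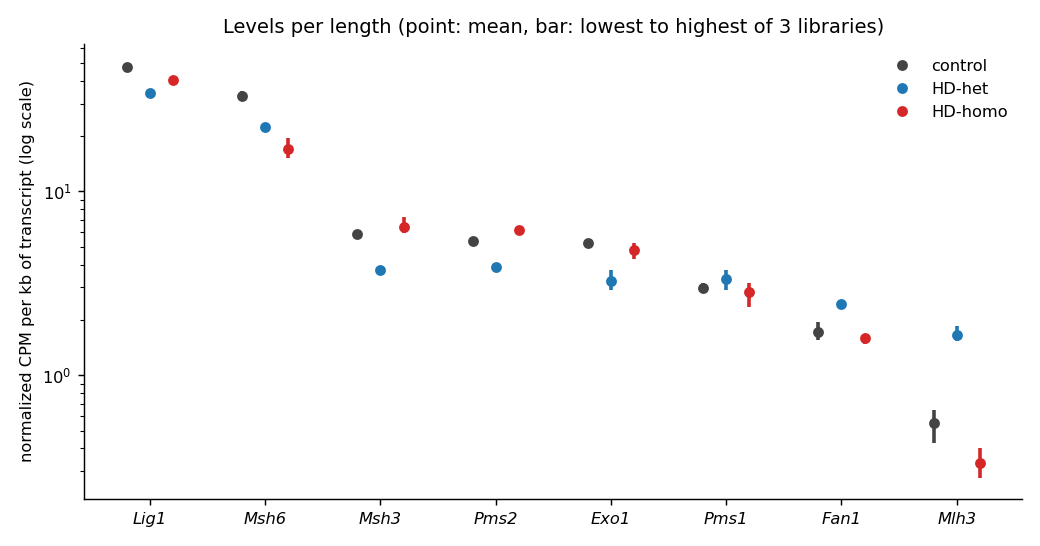
Normalized CPM per kb of the longest annotated transcript, on a log axis. Points are means and bars run from the lowest to the highest of 3 libraries. Genes are ordered by control cells, from Lig1 at 47.6 to Mlh3 at 0.546 CPM per kb.

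Proteins of the later steps of mismatch repair include the sliding clamp Pcna, its loaders, the single-strand binding proteins and DNA polymerase delta. Of 14 such genes, 8 were lower in HD-het cells relative to control while the other 6 did not pass, and 5 were higher and 2 lower in HD-homo cells relative to control. The shares that passed, 57.1% and 50%, compare with 65.1% and 58.6% of all genes tested. Their median log2 fold changes were -0.21 and 0.07. The lowest in HD-het cells were Rpa2 (58.3 ± 3.08 CPM in control and 39.7 ± 3.33 in HD-het cells, log2 fold change -0.55) and Pold2 (97.4 ± 2.5 and 70.5 ± 6.64 CPM, -0.47). In HD-homo cells Rfc2 (73.7 ± 2.91 CPM against 54.6 ± 2.31 in control cells, 0.43) and Rfc5 (0.25) were the highest, and Pold2 (-0.41) and Pold3 (-0.28) the lowest. The meiotic MutS homologs were nearly silent, with 2 to 19 counts of Msh4 and 14 to 41 counts of Msh5 in a library. Msh4 was not tested, and Msh5 passed in neither comparison (log2 fold change -0.68, adjusted p = 0.0938, in HD-het and -0.31, adjusted p = 0.429, in HD-homo cells).

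Fan1 is recruited to crosslinks beside the Fanconi anemia proteins, of which 17 genes were measured. HD-het cells had 2 of them higher and 2 lower than control cells, and in HD-homo cells 5 were higher and 2 lower, with medians of 0.05 and 0.21. The shares of these 17 that passed were 23.5% in HD-het and 41.2% in HD-homo cells, beside 65.1% and 58.6% of all genes, and the gap was not tested. Fancl (log2 fold change 0.59), which encodes the ubiquitin ligase of the pathway, and Faap20 (0.40) were the higher ones in HD-het cells, and Fancb (-0.59) and Usp1 (-0.23) the lower ones. In HD-homo cells Fancd2 (0.44) and Fancc (0.38) were the highest, and Fanca (-0.49) and Faap100 (-0.36) the lowest.

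Base excision and single-strand break repair, the route that opens DNA at oxidized bases in CAG repeats, was represented by 19 genes tested out of 20. HD-het cells had 4 of these higher and 9 lower than control cells, and in HD-homo cells 4 were higher and 5 lower, with medians of -0.15 and -0.02. This is 68.4% of the list in HD-het cells (65.1% of all genes) and 47.4% in HD-homo cells (58.6% of all genes). Mpg, which encodes the glycosylase that removes alkylated purines, had 1, 0 and 1 counts in control cells, against 357, 339 and 338 counts in HD-het libraries and 905, 1101 and 933 counts in HD-homo libraries. Its mRNA was thus close to absent from the control line, and the ratio of counts summed over the 3 libraries, scaled by library size, to those of control cells was 485 in HD-het cells (95% exact interval 134 to 4010.2, for counting error only) and 1293 in HD-homo cells (358 to 10683). The list medians are the same with Mpg set at the lower limit of its interval. Apex1, the endonuclease at abasic sites (log2 fold change -0.79), and Fen1, the flap endonuclease (-0.73), were the lowest in HD-het cells, where Neil1 (0.39) was the highest after Mpg. In HD-homo cells Parp2 (0.57) was the highest after Mpg, and Xrcc1 (-0.67) and Neil1 (-0.58) were the lowest.

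Of 3 other genes at loci linked to the age at onset of Huntington disease, Ccdc82 was higher in HD-het cells (log2 fold change 0.58) and lower in HD-homo cells (-0.27). Med15 was lower in HD-het cells (-0.23), with -0.13 (adjusted p = 0.0563) in HD-homo cells. Rrm2b, a ribonucleotide reductase subunit, passed in neither line (-0.14, adjusted p = 0.229, and 0.02, adjusted p = 0.897).

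Msh6, Lig1 and Exo1 are known to be transcribed most in dividing cells, so the levels of cell-cycle genes are given beside them. Of 25 genes of S phase and replication licensing, 2 were higher and 17 lower in HD-het cells relative to control (median log2 fold change -0.31), and 7 were higher and 6 lower in HD-homo cells (median -0.08). Of all genes tested 33.8% were higher and 31.4% lower in HD-het cells, and 29.6% were higher and 28.9% lower in HD-homo cells. The summed level of these genes was 3905, 3854 and 4117 CPM in control, 2965, 2897 and 3317 CPM in HD-het and 3577, 3565 and 4068 CPM in HD-homo libraries, with Rrm1 the most abundant. HD-het libraries were thus the lowest for the S-phase sum as for Msh3, Pms2, Lig1 and Exo1, while Msh6 was lowest in HD-homo cells and Mlh3 and Fan1 were highest in HD-het cells, and the part of cell-cycle state in these levels was not tested. In a culture, fewer cells that transcribe a gene and less mRNA in each cell cannot be told apart. Cdc6 (-1.11) and Mcm3 (-0.85) were the lowest in HD-het cells and E2f1 (0.45) and Ccne1 (0.36) the highest, and in HD-homo cells Pola1 (0.56) and Gins3 (0.48) were the highest and Uhrf1 (-0.61) and Cdt1 (-0.45) the lowest.

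Of 16 genes of G2 and mitosis, HD-het cells had 2 higher and 8 lower (median -0.15) and HD-homo cells 9 higher and 1 lower (median 0.25), each against control cells. Each comparison thus called 62.5% of this list, beside 65.1% of all genes for HD-het and 58.6% for HD-homo cells. Their summed level was 3334, 3475 and 3198 CPM in control, 2809, 2896 and 2953 CPM in HD-het and 3927, 4155 and 3392 CPM in HD-homo libraries, with Top2a the most abundant. Ccnb2 was higher in both HD lines (1.5 in HD-het and 1.31 in HD-homo cells), as was Mki67 (0.40 and 0.49). Kif11 and Cdk1 (both -0.72) were the lowest in HD-het cells, and Birc5 (-0.20) was lower in HD-homo cells.

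**Figure D5:**
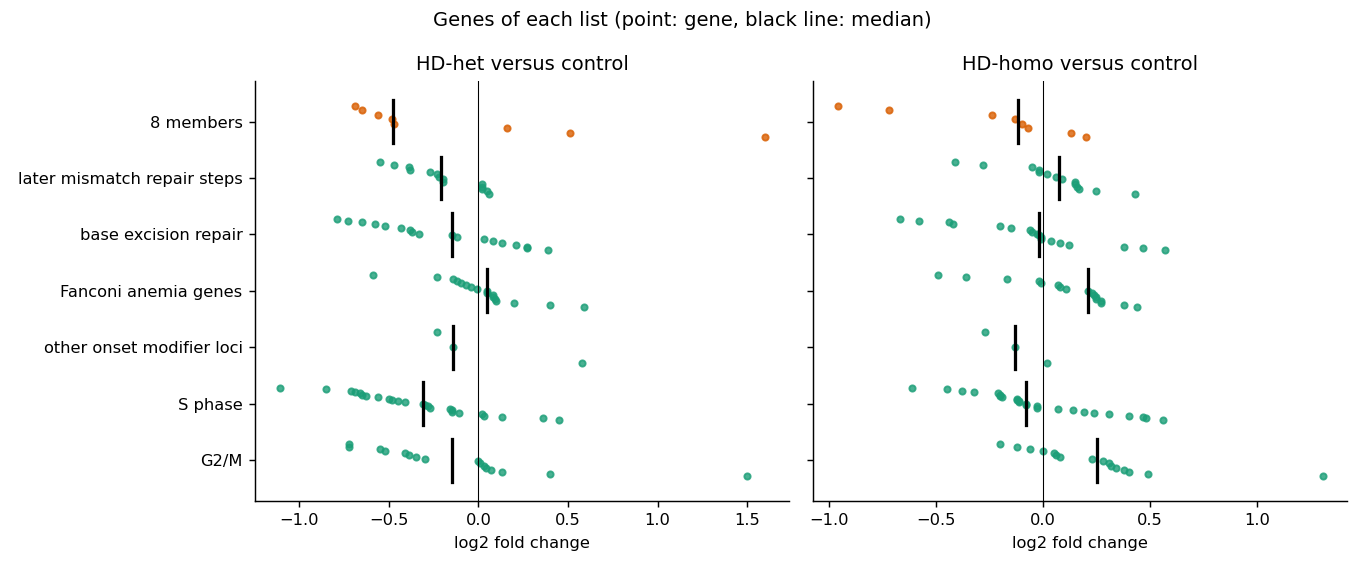
Log2 fold changes of the tested genes of each list in HD-het and HD-homo against control cells, which share the control libraries. Each point is 1 gene and each black line the median of its list. Mpg is counted in its median but not drawn. The S-phase median is -0.31 in HD-het and -0.08 in HD-homo cells.

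Over the 9 libraries, the genes whose log2 levels ran closest to those of Msh3 after centring were Maff (root mean square difference 0.0424), Kif11 (0.0494) and Rapgef2 (0.0627). Those closest to Fan1 were Coq8b (0.0508), the same gene listed again under its older symbol Adck4 (0.0602), and Zfp414 (0.078). Kif11, a mitotic kinesin, stood at 194 CPM in control, 117 CPM in HD-het and 204 CPM in HD-homo cells, and Coq8b at 6.52, 9.07 and 5.99 CPM. These genes were ranked on the same 9 libraries, and closeness of levels is only a description.

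Htt, whose exon 1 carries the repeat, stood at 104, 103 and 93.0 CPM in control, 61.8, 64.0 and 61.1 CPM in HD-het and 19.7, 21.7 and 19.2 CPM in HD-homo cells. Its level fell from line to line with no overlap, with log2 fold changes of -0.68 in HD-het (SE 0.0652, adjusted p = 4.4e-06) and -2.31 in HD-homo cells (SE 0.0694, adjusted p = 3.4e-10) against control cells. Msh6 was the member whose lines fell in the same order. Counts do not show the length of the repeat, and repeat expansion was not measured in these libraries.

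The striatal label of the lines was checked against marker genes. Of 9 markers of medium spiny neurons, Drd1 and Drd2 had at most 1 count in every library, and the summed level of the 9 was 4.43 ± 0.675 CPM in control, 6.71 ± 0.54 in HD-het and 5.00 ± 0.678 in HD-homo cells, with Pde10a the most abundant. The other markers were at low levels, and Ppp1r1b had 8 to 17 counts in HD-homo libraries and 1 to 3 counts in the others. Pde10a (2.07 CPM in control, 5.02 in HD-het and 1.56 in HD-homo cells) accounts for the higher sum in HD-het cells, where Penk (1.28, 0.47 and 2.42 CPM in the same order) was lowest. The neuronal markers Rbfox3, Snap25 and Syt1 had at most 3 counts, whereas Map2 and Tubb3 were present. Neural progenitor markers, chiefly Vim, summed to between 5900.0 and 6362 CPM in control, 5323 and 5827 CPM in HD-het and 4162 and 4578 CPM in HD-homo libraries. Of the progenitor genes, 3 were by far the lowest in HD-homo cells, namely Nes (526 CPM in control, 839.5 in HD-het and 28.4 in HD-homo cells), Sox2 (128, 82.9 and 5.48 CPM) and Pax6 (32.1, 48.2 and 0.132 CPM). Nes, Pax6 and Msi1 (6.01, 7.94 and 4.42 CPM) were highest in HD-het cells. Mesenchymal markers summed to 5397 ± 676, 13751 ± 974 and 6539 ± 286 CPM in the same order, with single genes that ran in different directions. Col1a1 (2465, 7097 and 4234 CPM) and Acta2 (2271, 5290 and 91.8 CPM) were highest in HD-het cells, whereas Col1a2 (73.4, 3.15 and 1494 CPM) and Dcn (4.06, 1.65 and 21.5 CPM) were lowest there and highest in HD-homo cells. Thus the levels of the 8 repair genes are those of cells with at most 1 count of the dopamine receptor genes Drd1 and Drd2 in a library and low levels of other striatal markers, and of lines that differ from each other in progenitor and mesenchymal genes. The part of those differences in the levels of the repair genes was not tested. Markers of astrocytes, oligodendrocytes, microglia and endothelium each summed to at most 18.6 CPM in any library, with Aqp4, Olig1, Olig2, Mog, Aif1, Itgam and Cldn5 at 3 counts or fewer. The astrocyte sum was 12.8 to 18.6 CPM in HD-homo libraries, against 2.71 to 3.01 CPM in control and 1.1 to 1.59 CPM in HD-het libraries, mainly from Slc1a3 (406 to 748 counts in HD-homo and 14 to 81 in other libraries).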

How the data were processed

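Per the labels, total RNA was isolated, poly(A) mRNA was selected and directional libraries were made. The deposited table holds whole numbers per gene symbol, described as raw counts. Whether they are counts of reads or rounded RSEM estimates is not given in the sources used here, and they were taken as counts, on which the exact interval for Mpg and the variance over counting depend. The submitters' processing notes name cutadapt, Bowtie 1.1.2, RSEM 1.3.0 and DESeq2 and the builds GRCm38.p5 and mm10, without saying which tool made the count table. The analysis used edgeR 4.0.16 under R 4.3.3, with filterByExpr at a minimum count of 10, TMM scaling and the quasi-likelihood fit (glmQLFit and glmQLFTest) of 1 mean for each line over the 9 libraries. P-values were adjusted by Benjamini-Hochberg over the 13508 genes tested within each comparison. CPM are normalized counts per megaread, computed from the deposited counts. Fold changes are ratios of mean CPM, except for Mpg, where counts were summed over libraries. The procedure was tested on simulated data. The variance between replicate libraries of a line was 2.21 to 40.4 times that of counting alone, so that all 9 were kept as separate libraries.

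The 8 genes and the lists were chosen with earlier results of these data known. Named genes are the 8, Htt, divergent neighbours with a start within 1000 bases, the 2 highest and 2 lowest called genes of each list in each HD line (all for lists of 5 or fewer), and the 3 genes closest to Msh3 and to Fan1. Positions, transcript lengths and neighbours come from GENCODE M21, and sequences from RefSeq. The partner subunits of the MutS and MutL heterodimers, and 5 genes planned for the lists, the neighbours or the markers, are not reported here, and those 5 were left out of the counts, medians and sums after the results were known. Alternatives were DESeq2's size factors, library totals, other filters, the Wald test of DESeq2 1.42.0, only the 2 lines compared, the replicate number as a block, each library left out, and an adjusted p under 0.01.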

Additional observations from a re-analysis of the deposited data

Results flagged for a closer look

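Mlh3 and Pms2 were picked out because they differed from control cells in opposite directions in the HD lines. That the difference between the HD lines passed was thus a condition of the choice. Its p-value is given as a description and adds no support to the 2 comparisons with control cells. Mlh3 was higher than control cells in all 3 HD-het libraries and lower in all 3 HD-homo libraries, and the HD-homo against HD-het log2 fold change was -2.31 (adjusted p = 4.9e-07 by edgeR's quasi-likelihood test, Benjamini-Hochberg adjusted). Pms2 was lower in all 3 HD-het libraries and higher in all 3 HD-homo libraries, with 0.68 between the HD lines (adjusted p = 3.4e-06). What sets the lines apart was not tested.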

How the results depend on the processing

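The count of members called stayed at 7 in HD-het against control cells and in HD-homo against HD-het cells under all alternatives run. In HD-homo against control cells it was 4, with a range of 3 to 4 without each library in turn and 3 at an adjusted p under 0.01. Of 384 log2 fold changes of members under 16 alternatives, 378 kept their direction and their side of the threshold. Pms2 in HD-homo against control cells was no longer past it without each of 4 libraries (adjusted p 0.0555 to 0.0758). Pms1 and Fan1 in HD-homo against control cells, which were not called, changed sign in 1 alternative each (0.05 without HD-homo replicate 1, where values ran from -0.16 to 0.05 without each library, and 0.01 without control replicate 1, where they ran from -0.16 to 0.01). Other values that were not called also moved without 1 library. Msh3 in HD-homo against control cells was 0.13, and 0.03 without HD-homo replicate 2 (adjusted p = 0.701), and Exo1 there was -0.13, with -0.05 without HD-homo replicate 2 and -0.20 without HD-homo replicate 3. Pms1 ran from 0.07 (without HD-het replicate 3) to 0.25 (without HD-het replicate 1) in HD-het against control cells, and from -0.32 (without HD-het replicate 1 or HD-homo replicate 3) to -0.11 (without HD-homo replicate 1) between the HD lines. Genes called in HD-homo against control cells numbered 7910, in HD-het against control cells 8797 and in HD-homo against HD-het cells 9666.

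With the replicate number as a block these counts were 8372, 9160 and 9938, and no call of a member in these comparisons changed. For the test of HD-het cells against the mean of control and HD-homo cells, results under the alternatives were not summarized. The deviations of same-numbered libraries had correlations across genes of -0.00532 to 0.145, not all over 0.1 in any comparison, so that the libraries were taken to share only a number.

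Depth limited Mlh3 most, with 49 counts in its lowest library, and Msh4 could not be tested. With 1 line per genotype, none of these alternatives bears on differences between lines that are not due to genotype.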
